A study of Mus musculus with 4 samples.

Results

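Transcripts of 8 genes of lymphocyte killing, Gzma, Gzmb, Gzmk, Prf1, Nkg7, Ctsw, Klrk1 and Fasl, were followed through the kidneys of mice that carry an altered base in TrnE, which encodes the mitochondrial glutamate tRNA, and of wild-type C57BL/6J mice. All 8 were found by symbol among the 32285 genes of the deposited tables. Kidneys had been digested, stained with a viability dye, sorted and run on a droplet platform that reads the 3′ ends of transcripts. The mutant group held 2 libraries with mutation loads of 79% (mutant 1) and 76% (mutant 2), and the wild-type group held 2 libraries (wild type 1 and wild type 2). Ages were not given in the sources used here, and the UMIs hold no check of the genotype. The raw unique molecular identifiers (UMIs, each counting 1 captured transcript) were summed per library within 4 cell classes. These were CD8 T-like, NK-like, gamma delta T-like and monocyte-like clusters, named from marker genes and written below without the suffix, as are other classes. The members were kept out of the genes that formed the clusters, but genes that vary with them were not, so differences between classes are descriptions without a test.

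Cytotoxic lymphocytes kill by releasing the content of secretory granules onto a target cell. Perforin forms pores in the target's membrane, and granzymes, which are serine proteases, enter the cell and cleave proteins that lead to its death. Ligation of Fas by Fas ligand is a separate route to the same end, and the receptor NKG2D lets NK and CD8 T cells recognise ligands that stressed cells display. Monocytes, which belong to the myeloid lineage, are not known for this programme and served as a class in which most of these genes were low.

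The genes lie apart in the genome, apart from a pair of granzymes. Gzma (chr13:113093825-113100981) and Gzmk (chr13:113171608-113225908) are both on the minus strand of chromosome 13, in the positions of GENCODE M21 on GRCm38. Gzmb lies at chr14:56258838-56262260 and Prf1 at chr10:61297833-61304680. Nkg7 lies at chr7:43437073-43438249, Ctsw at chr19:5465043-5468507, Klrk1 at chr6:129610323-129623864 and Fasl at chr1:161780689-161788495. All 8 are annotated as protein coding.

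The upstream sequences of the 3 granzyme genes and of perforin are shown because their products make up the killing content of the granule and their levels set NK cells apart from CD8 T cells below. Each run is the 250 bases before the RefSeq start (GRCm38.p6), 5′ to 3′ on the gene's strand, at chr13:113100982-113101231 (minus), chr14:56262335-56262584 (minus), chr13:113180966-113181215 (minus) and chr10:61297586-61297835 (plus). Capitals mark matches, on either strand, to 3 short motifs: TGTGGT, the core bound by RUNX factors, GTGTGA, a T-box core, and TGANTCA, an AP-1 site. The RefSeq starts of Gzmb, Gzmk and Prf1 differ from the GENCODE gene starts given above.
Gzma: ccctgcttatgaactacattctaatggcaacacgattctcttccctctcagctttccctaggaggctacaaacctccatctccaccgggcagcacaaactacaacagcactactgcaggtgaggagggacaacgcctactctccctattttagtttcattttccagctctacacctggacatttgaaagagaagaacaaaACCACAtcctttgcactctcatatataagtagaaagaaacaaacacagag
Gzmb: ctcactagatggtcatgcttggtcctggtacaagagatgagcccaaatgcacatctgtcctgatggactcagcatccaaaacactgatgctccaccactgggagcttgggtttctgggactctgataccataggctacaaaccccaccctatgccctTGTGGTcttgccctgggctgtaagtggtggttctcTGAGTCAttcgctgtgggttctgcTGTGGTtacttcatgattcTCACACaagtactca
Gzmk: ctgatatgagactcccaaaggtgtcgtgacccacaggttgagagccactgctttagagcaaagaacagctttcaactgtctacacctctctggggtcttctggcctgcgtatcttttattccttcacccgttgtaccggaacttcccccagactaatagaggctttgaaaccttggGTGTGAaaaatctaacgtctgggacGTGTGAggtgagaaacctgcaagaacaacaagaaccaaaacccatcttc
Prf1: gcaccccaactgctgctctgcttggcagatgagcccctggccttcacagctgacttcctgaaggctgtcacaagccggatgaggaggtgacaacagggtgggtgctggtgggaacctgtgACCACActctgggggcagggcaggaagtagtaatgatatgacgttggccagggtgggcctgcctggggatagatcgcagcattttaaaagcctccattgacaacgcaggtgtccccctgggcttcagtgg
The Gzmb window held matches to all 3 motifs, with the RUNX core 93 and 34 bases, the AP-1 site 58 bases and the T-box core 15 bases before the start. The Gzmk window held the T-box core at 74 and 49 bases, and the windows of Gzma and Prf1 held the RUNX core at 50 and at 130 bases. Of 32851 promoters of the same length, 14.0% held the RUNX core, 12.3% the T-box core and 6.75% the AP-1 site. A match describes the letters of the window and says nothing of binding. RefSeq windows were matched for 7 of the 8 genes.

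The 4 libraries held 65565948 and 70013861 UMIs in the mutants and 42121175 and 59946996 UMIs in the wild types, and 9535, 8916, 5671 and 6306 cells passed the filters in the order mutant 1, mutant 2, wild type 1 and wild type 2. Pairs of libraries shared 14 to 26 cell barcodes, at most 0.342% of the smaller library. CD8 T cells numbered 586 and 1773 in the mutants, against 354 and 281 in the wild types. NK cells numbered 51 and 86 against 118 and 9, gamma delta T cells 184 and 18 against 16 and 3, and monocytes 176 and 533 against 369 and 69. The CD8 T class held UMIs of Cd3e, Cd3g, Cd8a and Cd8b1 and the NK class UMIs of Ncr1 and Klrb1c in every library. The NK class also held Cd3g, at 445 and 195 CPM in the mutants and 45.1 and 0 CPM in the wild types. Libraries stood apart within the CD8 T class: 259 of the 281 cells of wild type 2 lay in 1 sub-cluster, and 326 of the 586 cells of mutant 1 lay in a sub-cluster whose leading genes, relative to the other T and NK cells, included tubule markers. The NK class of mutant 1 carried 3827 CPM of 10 macrophage markers, against 320 CPM in mutant 2, 1421 CPM in wild type 1 and 610 CPM in wild type 2. Levels are CPM, a gene's UMIs scaled to all UMIs of the class, and intervals in parentheses are exact 95% Poisson or binomial intervals, which cover counting error only.

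**Figure D1:**
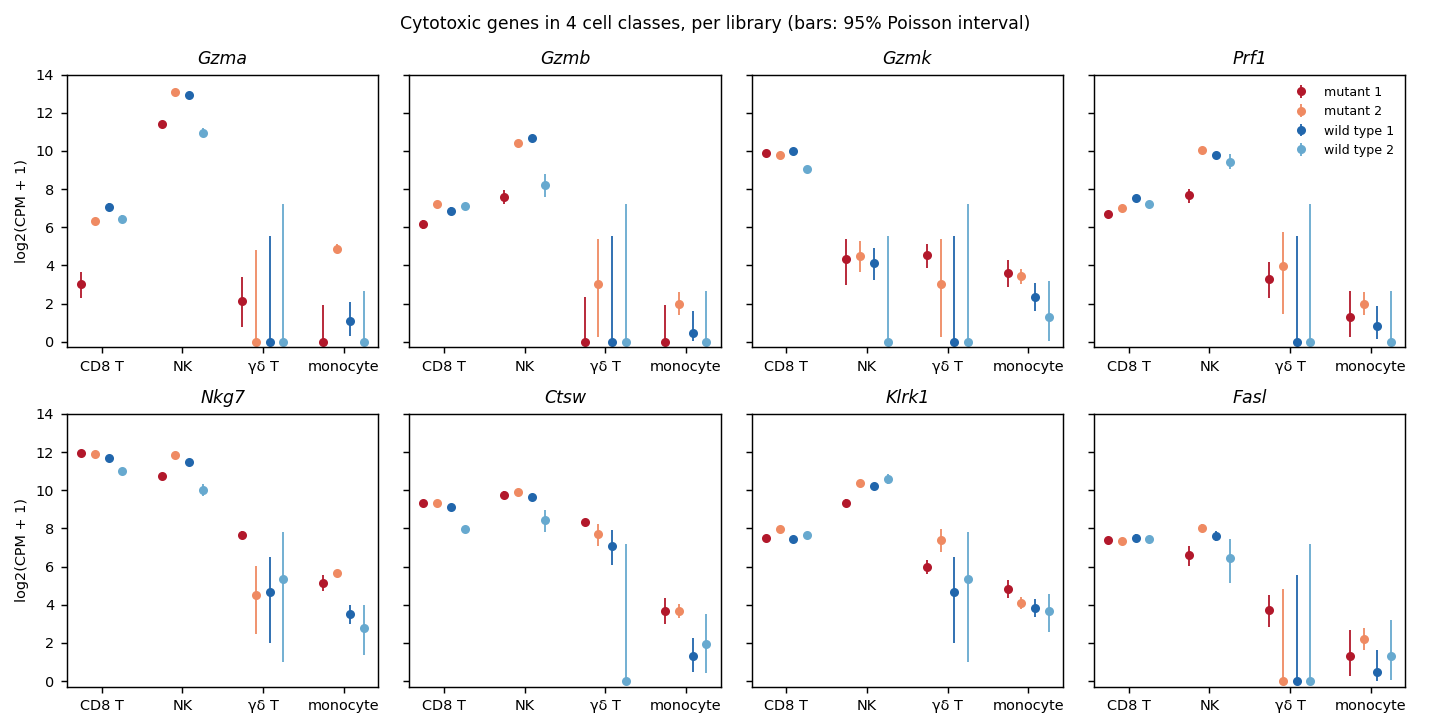
Level of each gene, as log2(CPM + 1), in CD8 T, NK, gamma delta T and monocyte classes of the 2 mutant (red, orange) and 2 wild-type (blue, light blue) libraries; bars are 95% Poisson intervals. Gzma, Gzmb, Prf1 and Klrk1 were highest in NK cells and Gzmk in CD8 T cells in every library.

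The granzymes divided NK cells from CD8 T cells in every library. Gzma, a granzyme that cleaves after basic residues, reached 2730 and 8749 CPM in mutant NK cells and 7897 and 1987 CPM in wild-type NK cells. In CD8 T cells Gzma was at 7.02 and 78.6 CPM in the mutants and 133 and 86.2 CPM in the wild types. The NK level was 389 and 111 times the CD8 T level in the mutants and 59.2 and 23.1 times in the wild types, and no NK library overlapped a CD8 T library. The ratio was largest in mutant 1, the library with the lowest CD8 T level.

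Gzmb, the granzyme that cleaves after aspartate and activates caspases, was also higher in NK cells. Its NK levels were 192 and 1369 CPM in the mutants and 1647 and 293 CPM in the wild types. CD8 T cells held 70.2 and 148 CPM of Gzmb in the mutants and 114 and 136 CPM in the wild types. NK cells of mutant 1 and wild type 2 were low in Gzma and in Gzmb alike, so the spread within each group exceeded the distance between the groups. Clustered at resolution 2, NK cells fell into a sub-cluster led by Gzma and another led by Gzmc, in a ranking that included the members. The name Gzma-led thus rests on a member's own level. The Gzma-led one had 11 and 53 cells in the mutants against 56 and 4 in the wild types, and the Gzmc-led one had 29 and 32 cells in the mutants against 54 and 4 in the wild types. The part of this mix in the NK levels was not tested. Prf1, the pore-forming protein, had 202 and 1039 CPM in mutant NK cells against 882 and 695 CPM in wild-type NK cells. Its CD8 T levels were 101 and 126 CPM in the mutants against 182 and 148 CPM in the wild types.

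Gzmk, a granzyme with the same preference for basic residues as Gzma, had the opposite pattern. CD8 T cells held 945 and 867 CPM in the mutants and 1001 and 520.5 CPM in the wild types. NK cells held 18.9 and 21.9 CPM in the mutants and 16.4 CPM in wild type 1, and no Gzmk UMI was found in the 9 NK cells of wild type 2, where 3 counts would be 36.6 CPM. In the 3 libraries with a ratio, the CD8 T level was 49.9, 39.6 and 61.1 times the NK level. CD8 T cells were the higher class for Gzmk, and NK cells for Gzma and Gzmb, in mutant and wild-type kidneys.

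The cells that carried a granzyme were many for Gzmk and few for Gzma in the CD8 T class. A Gzmk UMI was seen in 77.6% and 88.4% of mutant and 90.1% and 79.7% of wild-type CD8 T cells, and a Gzmb UMI in 10.1% and 21.9% of mutant and 21.8% and 21.7% of wild-type cells. Gzma was seen in 12 of 586 and 105 of 1773 mutant cells (2.05% and 5.92%) and in 17 of 354 and 11 of 281 wild-type cells (4.8% and 3.91%). Proximal tubule cells, which should make none of the 3, had a Gzmk UMI in 0.242% to 2.02% of cells, a Gzmb UMI in 0.148% to 0.898% and a Gzma UMI in 0.0369% to 1.01%. Each library's CD8 T share of all 3 genes was above its own proximal tubule share. Median depths were 3190, 5125, 4060 and 6730 UMIs per CD8 T cell and 4137 to 6198 UMIs per proximal tubule cell. Thinned to 1000 UMIs per cell, which left out 19, 4, 0 and 2 CD8 T cells, Gzmk was expected in 54.5% and 52.7% of mutant and 60.8% and 38.3% of wild-type cells, and Gzmb in 4.58% and 9.28% against 8.66% and 8.86%.

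Gzma in CD8 T cells rested on a handful of cells in the wild types. In wild type 2, 1 cell carried 126 of 174 Gzma UMIs (72.4%), and in wild type 1 the highest 5 cells carried 88.0% of 209 UMIs. The highest 5 cells carried 50.0% of the 14 UMIs of mutant 1 and 42.4% of the 774 UMIs of mutant 2. Mutant 1 held no CD8 T cell with 10 or more Gzma UMIs, whereas mutant 2 held 18, wild type 1 held 5 and wild type 2 held 2. The CD8 T class also held Trdc, at 4.01 and 8.63 CPM in the mutants and 110 and 32.2 CPM in the wild types. A count of 126 Gzma UMIs in 1 cell of wild type 2 recurs below, among gamma delta T cells chosen by single genes. In wild type 2, cells that passed the filters held 378 Gzma UMIs, of which 174 lay in CD8 T and 163 in NK cells. No NK cell there held more than 61, and the other classes together held too few for such a count. It is thus the same cell, which had a Trdc UMI and none of Cd8a or Cd8b1. The part of such cells in the levels of the other libraries was not tested.

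Within single NK cells Gzma and Gzmb were found together. A Gzmb UMI was seen in 58.8% and 78.7% of mutant and 89.7% and 75.0% of wild-type NK cells with a Gzma UMI. It was seen in 5.88% and 16.0% of mutant and 8% and 0% of wild-type NK cells without one, the 0 resting on 5 cells of wild type 2. In CD8 T cells a Gzmb UMI was seen in 11.2% and 22.5% of mutant and 21.6% and 25.4% of wild-type cells with a Gzmk UMI. The shares in CD8 T cells without a Gzmk UMI were 6.11% and 17.5% in the mutants, against 22.9% and 7.02% in the wild types. Deeper cells show more of every gene, and these shares were not thinned. At least 4 of the 8 genes were seen in 56.9% and 88.4% of mutant and 82.2% and 66.7% of wild-type NK cells, and in 51.0% and 77.2% of mutant and 69.8% and 66.2% of wild-type CD8 T cells.

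Nkg7, a granule membrane protein needed for granule release, was high in both cytotoxic classes. CD8 T cells held 3951 and 3762 CPM in the mutants and 3290 and 2018 CPM in the wild types, and NK cells held 1743 and 3687 CPM against 2848 and 1036 CPM. Ctsw, a cysteine protease of cytotoxic lymphocytes, was at 637 and 643 CPM in mutant and 559 and 251 CPM in wild-type CD8 T cells. NK cells held 867 and 950 CPM of Ctsw in the mutants and 800.5 and 341 CPM in the wild types. The ranges of the 2 classes overlapped for both genes, although within each library Ctsw was higher in NK cells, by 1.36 to 1.48 times.

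Klrk1, which encodes NKG2D, was higher in NK cells, at 649 and 1318 CPM in the mutants and 1184 and 1536 CPM in the wild types. CD8 T cells held 178 and 253 CPM in the mutants and 172 and 204 CPM in the wild types. Fasl, which encodes Fas ligand, was the most even of the 8 in CD8 T cells, at 164 and 161 CPM in the mutants and 182 and 171 CPM in the wild types. NK cells held 94.6 and 259 CPM of Fasl in the mutants and 194 and 85.3 CPM in the wild types, a range that contained every CD8 T value.

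The gamma delta T class, whose leading genes were Trdc and Tcrg-C1 beside Cd163l1 and Il17a, was nearly without granzymes and perforin. Mutant 1 held 184 of its 221 cells, so the leading genes describe mostly that library. Il17a had 717 and 26 UMIs in the mutants and 0 UMIs in either wild type. Gzma had 3 UMIs in the 184 cells of mutant 1 and none in the other 3 libraries, where 3 counts would be 21.9, 36.9 and 118 CPM. Gzmb had 1 UMI in all, in mutant 2. Prf1 had 8 and 2 UMIs in the mutants and none in the wild types. Ctsw was higher, at 321 CPM (286 to 361) and 204 CPM (136 to 295) in the mutants and 135 CPM (67.5 to 242) in wild type 1, with no UMI in the 3 cells of wild type 2. Gzmk had 20 UMIs and 1 UMI and Fasl 11 and 0 UMIs in the mutants, and both had none in the wild types. Klrk1 was at 63.0 and 168 CPM in the mutants against 24.6 and 39.4 CPM in the wild types, the wild-type values resting on 2 UMIs and 1 UMI. Nkg7 had 182 and 3 UMIs in the mutants against 2 UMIs and 1 UMI in the wild types. With 16 and 3 wild-type cells, no test of the mutant effect was run in this class.

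Another way of choosing the class gave other values. Cells with a Cd3 and a Trdc UMI and none of Cd4, Cd8a or Cd8b1 numbered 210 and 33 in the mutants, against 32 and 12 in the wild types. They held 2.45 and 446 CPM of Gzma in the mutants and 691 and 1191 CPM in the wild types, but few cells carried it. Its UMIs were 3 in 2 cells of mutant 1 and 108 in 1 cell of mutant 2, against 112 in 3 cells of wild type 1 and 126 in 1 cell of wild type 2. Klrk1 was at 60.4 and 541 CPM in such mutant cells against 364 and 170 CPM in wild-type cells.

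**Figure D2:**
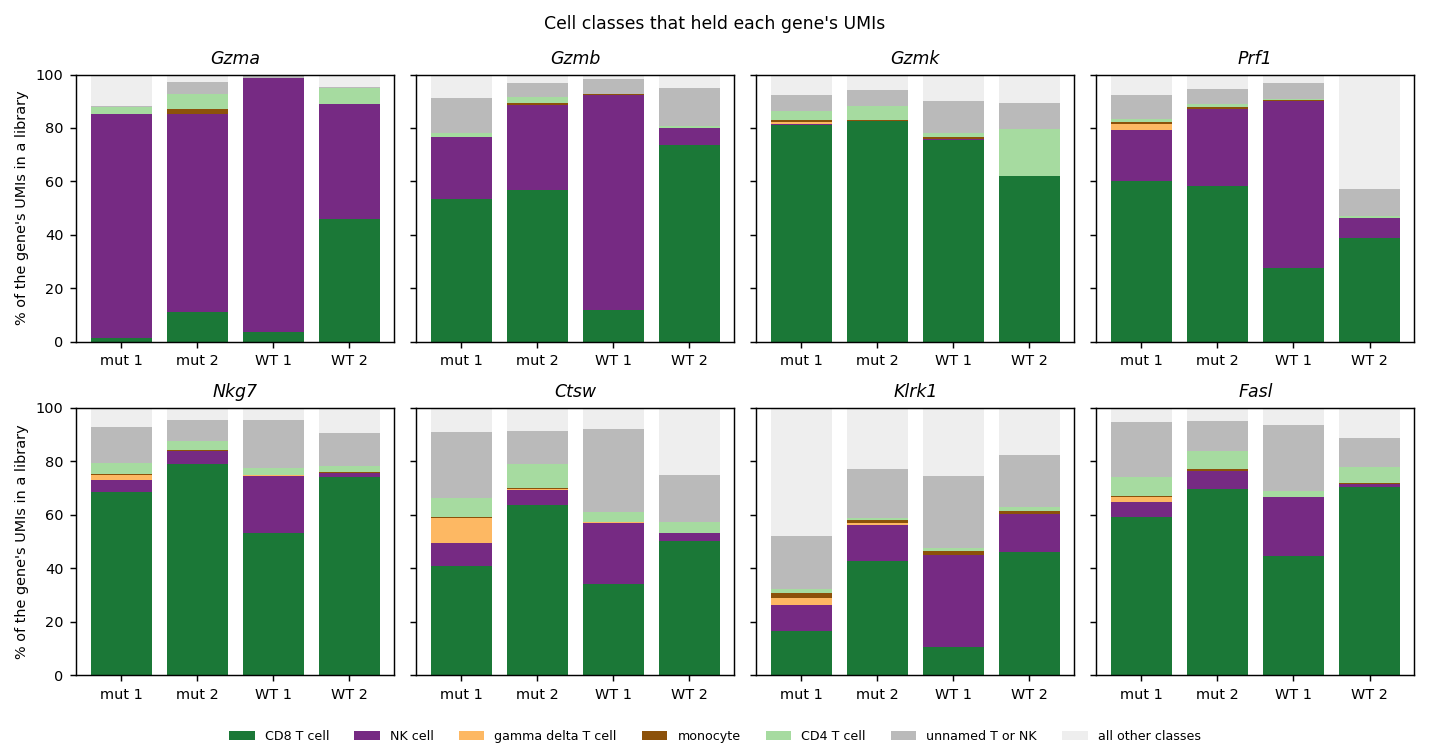
Share (%) of each gene's UMIs, counted in a library's cells that passed the filters, that lay in each cell class. Mutant bars stand left of wild-type bars. NK cells held most Gzma UMIs in 3 libraries and 43.1% in wild type 2, and CD8 T cells held most Gzmk UMIs in all 4.

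The classes contributed unequally to each library's transcripts, counted here in cells that passed the filters only. NK cells carried 83.8% and 74.2% of these Gzma UMIs in the mutants, against 95.2% and 43.1% in the wild types. They were 51, 86, 118 and 9 cells. CD8 T cells carried 81.2% and 82.5% of Gzmk UMIs in the mutants, against 75.4% and 61.9% in the wild types. Gzmb lay mainly in CD8 T cells in the mutants (53.2% and 56.9%) and in wild type 2 (73.7%), but in wild type 1 NK cells carried 80.6%. Of Prf1 UMIs, 60.1% and 58.3% lay in mutant CD8 T cells, against 27.6% and 38.8% in wild-type CD8 T cells. Over all cells of a library that passed the filters, Gzma was at 17.7 and 111 CPM in the mutants and 167 and 6.86 CPM in the wild types. Nkg7 was at 197 and 742 CPM against 267 and 99.6 CPM. The groups overlapped for both, and such levels follow the numbers of cells in each class as well as the level per cell.

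Sub-clusters of CD8 T cells differed in the level of each granzyme. In mutant 2, the library with the most CD8 T cells, sub-clusters 0, 3, 7, 8 and 14 had at least 50 cells. Gzmk was the highest of the 3 granzymes in each, and ranged between 507 CPM in sub-cluster 8 and 1232 CPM in sub-cluster 0. Gzmb was lowest in sub-cluster 0, at 86.4 CPM, and highest in sub-cluster 14, at 423 CPM, where Fasl was also highest, at 405 CPM against 119 to 180.5 CPM in the other 4. Against the other T and NK cells, the leading genes of sub-cluster 14 were immediate early and heat shock genes, among them Ier3, Nr4a2, Fos, Hspa1a and Hspa1b, whose part in these levels was not tested. Sub-cluster 3, with the most Nkg7 (4552 CPM) and Gzma (149 CPM), had Coch, Ccl3, Havcr2 and Pdcd1 among its leading genes on the same measure. Its share of cells with a Gzma UMI was 6.69%, below the 12.4% of sub-cluster 7 and 11.1% of sub-cluster 14. The shares in sub-clusters 0 and 8 were 3.45% and 3.77%. Klrk1 was at 423 CPM in sub-cluster 8 and 154 CPM in sub-cluster 0. In mutant 1, Fasl was again highest in sub-cluster 14, at 309 CPM against 132 to 150 CPM in sub-clusters 0, 5 and 7. Gzmb was highest in sub-cluster 7, at 191 CPM, from 49 UMIs in 11.3% of 71 cells. Its shares in sub-clusters 0, 14 and 5 were 15.4%, 12.2% and 8.90%. Over all libraries, 53.4% of the cells of sub-cluster 7 had a Cd8a UMI and 20.6% a Cd4 UMI.

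**Figure D3:**
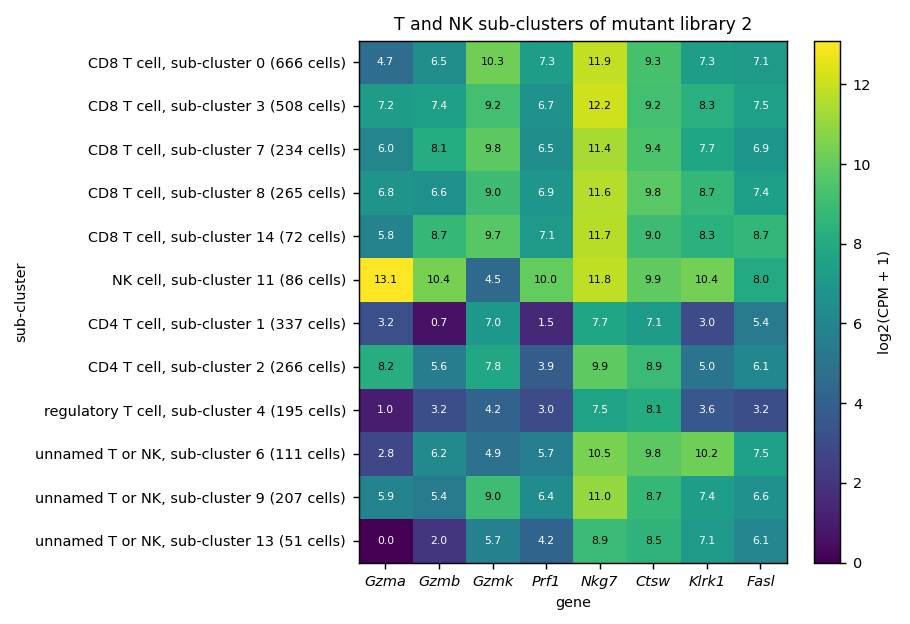
Level of each gene, as log2(CPM + 1), in T and NK sub-clusters of mutant 2 with at least 50 cells. The NK row is highest in Gzma and low in Gzmk, and the CD8 T rows are high in Gzmk and Nkg7.

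The mutant and wild-type kidneys were then compared with edgeR's quasi-likelihood test on the summed UMIs of 2 against 2 libraries, with Benjamini-Hochberg adjustment over all genes tested in a class. In sums of this kind, fewer cells that express a gene and less RNA per cell cannot be told apart. In CD8 T cells none of the 8 members passed the threshold of 0.05. Over all genes 5 of 9612 did (0.052%), with 794 at an unadjusted p under 0.05, and all 8 members were among those tested. The 5 genes were Apoe, H2-Ab1, Lyz2, H2-Eb1 and Ifitm3, named after their values were seen, and all were higher in the mutants. The summed level of 10 macrophage markers in the CD8 T class was 354 and 251 CPM in the mutants and 68.9 and 35.7 CPM in the wild types, with Cd163 at 0 in mutant 2 and in both wild types, and the part of such transcripts in these calls was not tested. DESeq2 called 12 genes in this class. Scaling by library totals called 21 genes higher and 53 lower, against 5 higher and 0 lower with the trimmed-mean scaling, and moved the median log2 fold change of all genes to -0.14 in CD8 T cells, -0.16 in monocytes and -0.20 in NK cells.

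Ctsw had the largest positive difference among the members in CD8 T cells, with a log2 fold change of 0.81 (SE 0.43, adjusted p = 0.566). Nkg7 followed at 0.70 (SE 0.45, adjusted p = 0.586), Gzmk at 0.41 (SE 0.42, adjusted p = 0.700) and Klrk1 at 0.36 (SE 0.31, adjusted p = 0.648), by the same edgeR test. For Ctsw and Nkg7 both mutant values lay above both wild-type values, and wild type 2 was the lowest library. The share of all genes with groups apart in this way is not given here. No weight is put on such an order, here or below. Fasl differed by 0.05 (SE 0.30) and Gzmb by -0.05 (SE 0.32), each less than its own error. The sign of Fasl depended on the scaling: both mutant levels lay below both wild-type levels in CPM, and with library totals the log2 fold change was -0.12. Prf1 had a log2 fold change of -0.37 (SE 0.30, adjusted p = 0.626), with both mutant values below both wild-type values.

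Gzma had the widest error, with a log2 fold change of -1.19 (SE 1.23, adjusted p = 0.744 by edgeR) in CD8 T cells. Averages were 42.8 ± 50.6 CPM in the mutants and 109.7 ± 33.3 CPM in the wild types (SD, n = 2 each). Without mutant 2 the change was -3.70, and without mutant 1 it was -0.43. Either fit leaves 1 mutant library, which is assumed to vary as the wild types do, and no call is drawn from it. Cells were then chosen by single genes: a Cd3 and a Cd8a or Cd8b1 UMI, and none of Cd4, Trdc or Ncr1. Used in place of clusters, they held 4.8 and 70.7 CPM of Gzma in the mutants against 56.5 and 16.9 CPM in the wild types. The change then turned to 0.20. The size of this difference thus depended on 1 library, and its direction on how the cells were chosen.

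**Figure D4:**
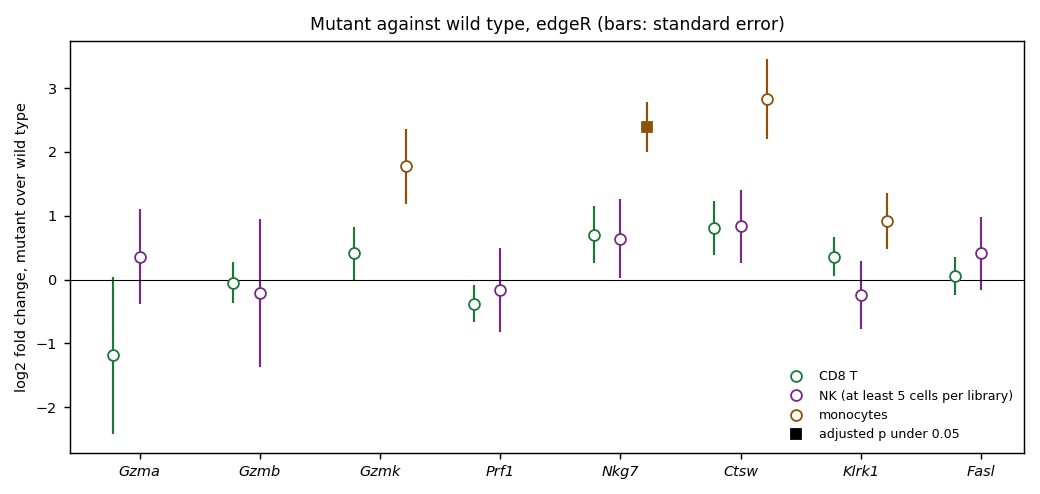
Log2 fold change, mutant over wild type, with its standard error, for each gene tested in CD8 T cells, NK cells (a fit with at least 5 cells per library) and monocytes. Only Nkg7 in monocytes, drawn as a filled square, had an adjusted p under 0.05.

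Wild type 2 had 9 NK cells, fewer than the 20 per library set for a test, so the NK comparison was run with a minimum of 5 cells and is given for its errors. No gene of 6381 passed (0%), with 197 at an unadjusted p under 0.05, and DESeq2 called 0. Of the 7 members tested, Ctsw had the largest positive value, 0.83 (SE 0.57), and Klrk1 the lowest, -0.24 (SE 0.54). Standard errors of the granzymes and perforin were 0.66 to 1.16. The mutant effect in NK cells minus that in CD8 T cells was tested with the library as a block, and 0 of 9623 genes passed (0%), with 259 at an unadjusted p under 0.05, while DESeq2 called 1. For Gzma this difference was 2.37 (SE 0.78, adjusted p = 1 by edgeR).

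In monocytes, 4 of 9293 genes passed the threshold (0.043%), all higher in the mutants: Retnla, Lyz1, Cxcr6 and the member Nkg7. Retnla, Lyz1 and Cxcr6 are named after their values were seen. Nkg7 had 34.3 and 49.2 CPM in mutant monocytes against 10.4 and 5.77 CPM in wild-type monocytes, with 46 and 231 UMIs against 28 and 4 UMIs. On the log2 scale edgeR gave a change of 2.39 (SE 0.39, adjusted p = 0.0462), with an adjusted p of 0.0505 by DESeq2 and 0.0826 with scaling by library totals. At 3.41% and 14.6% of mutant and 1.90% and 2.90% of wild-type monocytes, few cells held a UMI.

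Of the 4 members with enough UMIs for the test in monocytes, the other 3 did not pass. Ctsw had 11.9 and 11.9 CPM in the mutants and 1.48 and 2.88 CPM in the wild types (2.83 on the log2 scale, SE 0.62, adjusted p = 0.310 by edgeR). Gzmk had 11.2 and 9.80 CPM against 4.08 and 1.44 CPM (1.77, SE 0.59, adjusted p = 0.870 by edgeR). The UMIs of Ctsw were 16 and 56 in the mutants against 4 and 2 in the wild types. Those of Gzmk were 15 and 46 against 11 and 1. Both genes passed the count filter through their mutant levels alone, so their direction in the test carries no support. Klrk1 had 27.6 and 16.0 CPM against 13.3 and 11.5 CPM (0.91, SE 0.44, adjusted p = 0.870 by edgeR). Gzma, Gzmb, Prf1 and Fasl were below the filter, and all but Gzma stayed at or under 3.62 CPM in every library. Mutant 2 held 28.3 CPM of Gzma, from 1.31% of its monocytes.

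T cell transcripts were present in the monocyte class. The 12 T cell markers summed to 171 and 256 CPM in the mutants and 66.0 and 257 CPM in the wild types, and all 12 had a UMI in every library. The 12 NK markers summed to 35.0 and 28.5 CPM against 20.02 and 23.1 CPM, with Klra4 at 0 in all 4 libraries and Ncr1 at 0 in mutant 1 and wild type 2. In proximal tubule cells, which do not make granules, Nkg7 was at 24.9 and 42.2 CPM in the mutants and 12.5 and 4.05 CPM in the wild types, the same order of groups as in monocytes. Thinned to 1000 UMIs, Nkg7 was expected in 1.52% and 2.80% of mutant and 0.492% and 0.606% of wild-type monocytes, against 1.49% and 2.40% of mutant and 0.760% and 0.467% of wild-type proximal tubule cells. The shares in monocytes were of similar size to those in proximal tubule cells, while the T cell marker sums of mutants and wild types overlapped. The 46 Nkg7 UMIs of mutant 1 lay in 6 of its 176 monocytes. The part of free RNA, or of barcodes that hold more than 1 cell, in the difference was not tested. When monocytes with a Cd3 or Ncr1 UMI were left out, Nkg7 had 0 and 16.8 CPM in the mutants against 1.92 and 1.59 CPM in the wild types, too few UMIs for the test. Klrk1 in the same cells was at 21.7 and 13.7 CPM in the mutants and 12.7 and 11.2 CPM in the wild types, close to its levels in all monocytes.

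**Figure D5:**
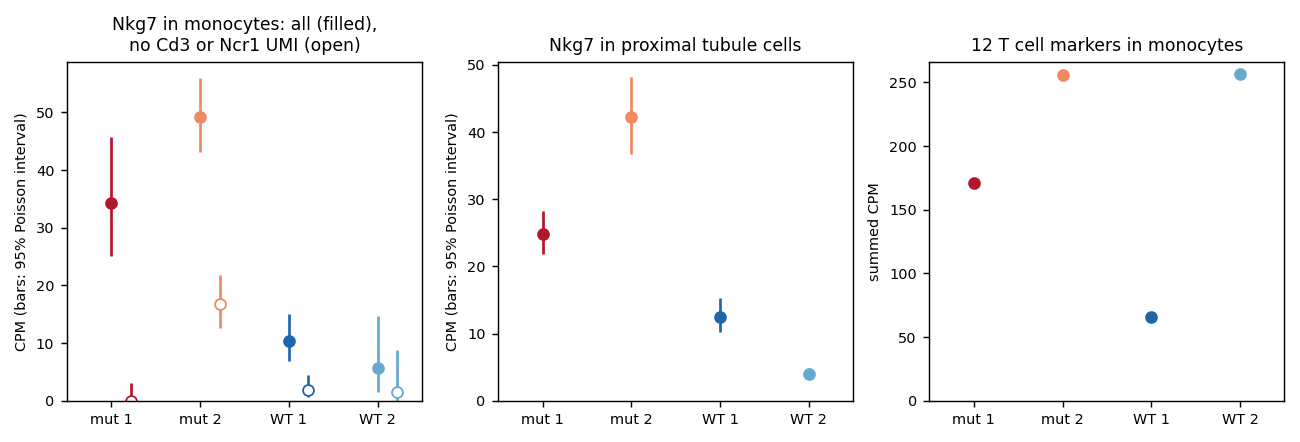
Left, Nkg7 in all monocytes (filled) and in those without a Cd3 or Ncr1 UMI (open), in CPM with 95% Poisson intervals; middle, Nkg7 in proximal tubule cells; right, summed CPM of 12 T cell markers in monocytes. Nkg7 of mutant 1 was 34.3 CPM in all monocytes and 0 CPM without those cells.

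Other genes of the killing programme were counted from lists. In CD8 T cells none of the tested genes of the 7 other lists passed the threshold in either direction, against 0.052% of all genes. For 10 tested genes of other granule proteins the median log2 fold change was 0.11, with 6 of them above 0, and for 15 genes of granule docking and release it was 0.10, with 8 above 0. Over all 9612 genes the median was 0.02 and 51.3% were above 0. The members' own median was 0.21. Vamp8, a vesicle fusion protein, had 252 and 223 CPM in the mutants and 163 and 119 CPM in the wild types (0.92, SE 0.33, adjusted p = 0.566 by edgeR), and Stxbp2, which works with syntaxin 11 in granule fusion, had 0.82 (SE 0.31). Ctsd, a lysosomal protease, had 0.79 (SE 0.36) and Cst7, an inhibitor of cathepsins, 0.55 (SE 0.32). None of these 4 genes passed the adjustment.

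Adaptors and regulators had values on both sides. The 15 activating receptors and adaptors had a median of 0.31, with Tyrobp at 2.20 (SE 0.48, adjusted p = 0.325) and Fcer1g at 1.74 (SE 0.38, adjusted p = 0.288), by edgeR. Both encode signalling adaptors that myeloid cells also express. The macrophage marker sums given above were also higher in the mutants, and the part of such transcripts in these values was not tested. Transcription factors of cytotoxic cells had the lowest median of the lists with more than 2 genes tested, -0.41 over 15 genes, of which 3 were positive. Zeb2, a factor of terminal effector cells, had 42.6 and 64.7 CPM in the mutants and 114 and 124 CPM in the wild types (-0.98, SE 0.28, adjusted p = 0.443 by edgeR). Bach2, which restrains effector differentiation, had 67.7 and 102 CPM against 129 and 198 CPM (-0.78, SE 0.30).

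For receptors and cytokines, the 14 inhibitory receptors tested in CD8 T cells had a median of -0.03, and the 12 death ligands and cytokines one of 0.47. Cd160 had 0.82 (SE 0.29) and Klrb1c -1.31 (SE 0.49). Ltb, a membrane cytokine of lymphocytes, had 884 and 807 CPM in the mutants and 550 and 509 CPM in the wild types (0.85, SE 0.37, adjusted p = 0.566 by edgeR), and Tnf had 0.83 (SE 0.31). Of the NKG2D ligands, 2 were tested in CD8 T cells, Raet1e at -1.26 (SE 0.51) and Ulbp1 at -0.46 (SE 0.32). In monocytes the same 7 lists held no gene past the threshold, and Ccl5, a chemokine that T cells make in quantity, was closest, at 392 and 239 CPM against 113 and 51.9 CPM (2.11, SE 0.47, adjusted p = 0.400 by edgeR).

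Genes were ranked by how alike their pattern was to each member's, by Pearson's r of log2(CPM + 1) over 62 sums of 17 classes in the 4 libraries, among 14912 genes. These sums share libraries and cell types, and r is given as a description. The 5 genes nearest to Gzma were Gm41790 (0.876), Gzmb (0.874), Styk1 (0.869), Klrc3 (0.855) and Adamts14 (0.845). Gzmb stood with Gm41790 (0.890), Gzma (0.874), Rasl12 (0.865), Klrc3 (0.857) and Klra7 (0.857), so both granzymes had the unnamed gene model Gm41790 first. Gzmk stood with Themis (0.816), Cd8b1 (0.811), Ms4a4b (0.808), Epha3 (0.805) and Cd8a (0.800). Prf1 stood with Samd3 (0.856), Klra7 (0.850), Gzmb (0.846), Gm33782 (0.843) and Gm41790 (0.841). Samd3 also headed the list of Nkg7 (0.904), before Fasl (0.875), Ccl5 (0.859), Ms4a4b (0.851) and Cd160 (0.844). The list of Fasl held Samd3 (0.893), Nkg7 (0.875), Ms4a4b (0.871), Ctsw (0.854) and Txk (0.852). Ctsw stood with Ms4a4b (0.888), Gm20069 (0.884), Xcl1 (0.878), Sla2 (0.874) and Cst7 (0.871). Klrk1 stood with Klrd1 (0.858), which encodes CD94, Cd7 (0.829), Il12rb2 (0.809), Adgrg5 (0.807) and Klre1 (0.803).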

How the data were processed

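The authors deposited unnormalized UMI counts, a gene-by-barcode matrix for each library. Per the file headers, mutant matrices came from Cell Ranger 7.0.0 and wild-type matrices from 7.1.0, so software version and group cannot be told apart. The build is mm10 per the submitters' processing notes; the gene annotation is not given in the sources. Samples were grouped by label, but the file name of wild type 1 resembles a mutant's and the name of mutant 1 carries another number than its load.

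A barcode was kept if it had 200 or more genes, 500 or more UMIs and no more than 50% of UMIs from mitochondria, and doublets called by Scrublet (239, 155, 97 and 122) were removed. Clusters were formed with scanpy 1.11.5 and leidenalg 0.10.2 (2000 variable genes without the members, 30 components, 15 neighbours, resolution 1), and T and NK clusters were clustered again. Thresholds for naming those sub-clusters were set after the data were seen, among them a UMI of the defining gene in at least 50% of cells. No correction for free RNA was made. A 3′ UMI count does not scale with transcript length.

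UMIs were summed per class and library, passed through filterByExpr, TMM scaling and then the quasi-likelihood test of edgeR 4.0.16 (R 4.3.3), with DESeq2 1.42.0 as an alternative. The edgeR step was tested on simulated counts. A class needed 20 cells in every library. The labels do not say that libraries came from separate litters or days, and p-values measure the spread between these samples. The smallest count treated as measurable was 3 UMIs. The text names all members, up to 2 genes of each other list with the smallest p in a tested class, and the 5 genes most like each member, and the members and lists were chosen with earlier results of these data known.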

Additional observations from a re-analysis of the deposited data

How the results depend on the processing

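Of 348 values of the members under the alternatives, 309 kept their direction and side of the threshold, 33 reversed, 4 passed and 2 no longer passed, and the cause was not tested. The CD8 T count of 5 genes became 3 with RLE size factors, 74 with library totals, 81 without the count filter, 12 by DESeq2, 3 at 25% mitochondrial UMIs and 0 with gates, and 37, 48, 148 and 10 without mutant 1, mutant 2, wild type 1 and wild type 2. The monocyte count of 4 became 30 without the filter, and 33, 180, 102 and 14 without those libraries. The NK count of 0 became 15 without the filter, 21 with gates and 7, 18, 37 and 14 without those libraries. The count of 0 for NK minus CD8 T became 28 without the filter, 1 by DESeq2, 2 with gates, 24 at sub-cluster resolution 2 and 56, 11, 1 and 0 without those libraries. The replicate block gave 36 genes in CD8 T cells and 36 in monocytes. Deviations of same-numbered libraries had correlations of 0.09 and 0.29, but with 2 pairs and no shared litter or day in the labels the numbers are taken as names only.

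In CD8 T cells, log2 fold changes reversed to -0.12 for Fasl with library totals, 0.20 for Gzma with gates and 0.085 for Gzmb without the sub-cluster led by tubule genes. Leaving out 1 library gave -0.065 to 0.19 for Fasl, -0.028 to 1.07 for Gzmk and -0.56 to 0.31 for Gzmb. In NK cells it gave -0.39 to 1.44 for Fasl, -0.72 to 0.17 for Klrk1, -1.66 to 0.57 for Prf1, -0.61 to 1.90 for Gzma and -2.12 to 1.77 for Gzmb, and Prf1 was 0.14 at resolution 2. The NK minus CD8 T difference reversed for Nkg7 (-0.045 with library totals, -0.14 with gates, -0.57 to 0.74 leaving out 1 library), Prf1 (0.0086 with RLE, 0.59 at resolution 2, -1.22 to 0.99), Gzmk (-0.044 at resolution 2), Gzmb (0.21 with gates and at resolution 2, -1.37 to 1.70), Ctsw (-0.13 with gates, -0.0096 to 0.42) and Fasl (-0.57 to 1.43). For Gzma this difference was 3.4 without mutant 2, and it passed without the count filter (2.35). Nkg7 in monocytes was 2.15 to 3.10 leaving out 1 library, and Ctsw passed there without the filter (2.82). A fit without 1 library leaves a lone sample assumed to vary like the other group, so it shows no stability.

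Alternatives with a minimum of 5 NK cells, and without the tubule-led sub-cluster, were chosen after seeing the data. Gamma delta T fits, and NK fits at 20 cells, were not run because too few cells were found. Those of wild type 2 rest on 9 and 3 cells.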

Other observations

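Some of the 8 genes were seen outside the 4 classes. Klrk1 was at 67.8 and 113 CPM in mutant and 87.7 and 97.8 CPM in wild-type dendritic cells, and 37.5% and 52.1% of mutant and 45.1% and 45.8% of wild-type dendritic cells had a UMI. Thinned to 1000 UMIs per cell, the share was 5.63% and 9.29% in the mutants, against 7.26% and 9.67% in the wild types, against 0.0444% to 0.435% of proximal tubule cells. The Nkg7 level of the same dendritic cells was 9.63 and 46.3 CPM in the mutants and 36.9 and 27.8 CPM in the wild types. In CD8 T cells Nkg7 exceeded Klrk1 in every library. Klrk1 was the higher in NK cells of wild type 2 (1536 against 1036 CPM) and gamma delta T cells of mutant 2 (168 against 21.9 CPM). It was also the higher in wild-type monocytes (13.3 and 11.5 CPM against 10.4 and 5.77 CPM). Wild-type macrophages averaged 22.6 CPM of Klrk1 against 4.90 CPM of Nkg7. In mutant monocytes, and in the mutant average of macrophages, Nkg7 was the higher. The source of Klrk1 transcripts in dendritic cells was not tested.

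Prf1 in B cells was at 3.75 and 4.64 CPM in the mutants, against 2.23 and 15.4 CPM in the wild types. A Prf1 UMI was found in 1.69% and 3.78% of mutant and 0.897% and 15.6% of wild-type B cells, whose median depths were 3772 and 6966 UMIs against 4656 and 9787 UMIs. Thinned to 1000 UMIs per cell, the shares were 0.201% and 0.392% in the mutants against 0.285% and 1.49% in the wild types, where proximal tubule cells had 0% to 0.0718%. The B cells of wild type 2 were mostly of another cluster: cluster 9, led by Sox5 and Bank1, held 30 and 193 B cells of the mutants against 48 and 834 of the wild types, and cluster 18, led by Ighd and Cd79a, held 148 and 177 against 175 and 63. What this adds to the Prf1 levels was not tested. Of the Prf1 UMIs in cells of wild type 2 that passed the filters, B cells carried 20.3% and plasma cells 18.8%.

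Gzmk in endothelium was at 17.3 and 44.1 CPM in the mutants and 38.6 and 31.2 CPM in the wild types. The last value rested on 38 cells. Proximal tubule cells held 0.639 to 8.36 CPM, but intercalated cells held 0 to 48.6 CPM and neutrophils 0 to 30.1 CPM. Such levels were thus not particular to endothelium. CD4 T cells held 79.9 and 171 CPM of Gzmk in the mutants and 105 and 151 CPM in the wild types.

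An unnamed sub-cluster with both Cd3 and NK receptor transcripts had at least 50 cells in 3 libraries. It held 742 and 1183 CPM of Klrk1 in the mutants and 1059 CPM in wild type 1, and 919 and 875 CPM of Ctsw against 837 CPM. Gzma was at 0 and 5.90 CPM in the mutants and 5.25 CPM in wild type 1, and Gzmk at 9.62 and 28.0 CPM against 1.75 CPM.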
